A study of Mus musculus with 12 samples.

Results

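The genes described here encode mitochondrial ribosomal proteins, and they include Mrps10. They are the protein-coding genes whose symbols begin with Mrpl or Mrps and a digit, with at least 10 estimated reads in at least 3 of 12 libraries. All 78 such genes of the 35865 listed genes passed, and 13906 genes passed in all. No gene lay just outside the threshold, and the member nearest to it was Mrps12, whose lowest library held 28 estimated reads. Members were chosen by symbol and by these estimated reads, and Mrps10 was selected on its lower normalized count against ctrl-EVs in these same libraries, so its own differences from the control are given as a description without a test. The question was whether the other members shared that difference.

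Polyadenylated RNA was sequenced from the mouse macrophage line RAW264.7, sampled 48 h after addition of extracellular vesicles (EVs) at 3 µg protein/ml. The EVs came from MS-1 cells, a mouse endothelial line, and had been loaded by electroporation with a miRNA mimic. The 4 groups of 3 libraries were ctrl-EVs, which carried the worm miRNA cel-miR-67, and the 3 miR-EV groups, named for their mimics miR-222-3p, miR-183-5p and miR-142-5p. Every group therefore received electroporated EVs, and the series holds no library of untreated cells. Titles number the libraries of each group 1 to 3, and the sources used here do not say what separates the libraries of a group beyond a general statement that experiments were repeated, so p-values measure only the spread between these libraries. Libraries held 16294611 to 22974853 estimated counts. All 6 macrophage markers examined were detected, with a summed level of 740 to 885 TPM, whereas the 9 endothelial markers summed to 6.53 to 9.88 TPM and Emcn, Esam, Kdr and Tie1 stayed under 10 counts in every library.

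The mitoribosome translates the few mRNAs that the mitochondrial genome encodes, all of which specify subunits of the respiratory chain or of ATP synthase. Its RNAs are made in the organelle, but its proteins are encoded in the nucleus, translated in the cytosol and imported. A small subunit reads the mRNA and a large subunit forms the peptide bonds. Part of the proteins have bacterial homologues and the rest are specific to mitochondria. Mrps10 is the counterpart of bacterial S10, a protein of the head of the small subunit. Of the 78 genes 26 encode small-subunit proteins, 16 of them with bacterial homologues. The large subunit accounts for 51, 30 of them with bacterial homologues. Mrps30 and Mrps18a, listed as mitochondria-specific, also belong to the large subunit despite their names. The remaining member, Mrps36, encodes a protein now assigned to the 2-oxoglutarate dehydrogenase complex.

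The mature miRNAs that the mimics were made after are shown because the 3′ UTRs of the members were searched for sites of their seeds. Capitals mark the seed, bases 2 to 8, in the mature sequences of RefSeq (GRCm38.p6), which can differ from the loaded mimic in length at the 3′ end.
miR-142-5p: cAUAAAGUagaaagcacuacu
miR-183-5p: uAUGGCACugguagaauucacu
miR-222-3p: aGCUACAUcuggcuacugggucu

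The seeds differ, so each miRNA was searched for its own 7-base complement. Among the 75 members with an annotated 3′ UTR, 7 held the letters ACTTTAT for miR-142-5p (9.33%, against 14.0% of 12573 tested genes). For miR-183-5p 3 held GTGCCAT (4% against 8.90%), and for miR-222-3p 5 held ATGTAGC (6.67% against 9.40%). Mrps10 held none of the 3. The members with a miR-142-5p site were Mrpl35, Mrpl50, Mrpl51, Mrpl53, Mrpl57, Mrps14 and Mrps6, and their median log2 fold change in miR-142-5p-EVs against ctrl-EVs was −0.16, beside −0.09 for the members without the site. The corresponding medians were −0.18 and −0.11 for miR-183-5p and −0.12 and −0.07 for miR-222-3p, without a test. Each set of members was read only in the group of its own mimic. Whether these gaps were particular to the matching mimic was not tested.

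Mitoribosomal protein genes were well expressed in these macrophages. The median member averaged 51.7 TPM (a share of all transcripts, corrected for transcript length), against 17.4 TPM for the median tested gene. Mrpl30 was highest at 262 ± 26.8 TPM (SD over 12 libraries), followed by Mrpl24 at 226 ± 48.9 and Mrps6 at 180 ± 46.1. At the other end were Mrpl1 at 20.8 ± 4.54, Mrpl23 at 19.5 ± 3.19 and Mrps10 itself at 14.9 ± 2.21 TPM. In bulk RNA, fewer cells that express a gene and less RNA per cell cannot be told apart. The level of Mrps10 was the lowest of the family, 17.6 times below that of Mrpl30. The neighbours Mrps12 (21.0 ± 9.91), Mrpl1 and Mrpl23 did not differ beyond their spread.

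Mrps10 (ENSMUSG00000034729.16) lies on the plus strand of chromosome 17, from 47368887 to 47381417 in GRCm38. Its normalized counts, estimated counts scaled for depth and mean transcript length, were 238, 249 and 257 in ctrl-EVs. They were 162, 178 and 170 in miR-142-5p-EVs, 183, 204 and 171 in miR-183-5p-EVs, and 184, 214 and 187 in miR-222-3p-EVs. All 9 miR-EV libraries were below all 3 ctrl-EV libraries. The group means were 248 ± 9.40 for ctrl-EVs, 170 ± 8.28, 186 ± 16.9 and 195 ± 16.7 (SD, n = 3). The log2 fold change was −0.44 over all miR-EVs and −0.55, −0.42 and −0.35 for the single groups, with the lowest value of the 78 members in each of these 4 comparisons. Among all tested genes 18 were lower in this sense (0.129%) and 24 were higher (0.173%). Of the members 1, Mrps10 itself, was lower and 0 were higher.

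The value for Mrps10 differed with the length correction and with the transcripts counted. Before scaling for depth and length, the estimated counts were 212, 196 and 213 in ctrl-EVs and 159 to 216 in the miR-EV libraries, and the groups overlapped. Scaled for depth alone, they were 196 to 234 in ctrl-EVs and 164 to 257 in the miR-EV libraries. Of the latter 2 of 9 lay in the control range, and most of the rest lay below it. The TPM-weighted mean length of the gene's transcripts was 711 to 829 bases in ctrl-EVs and 848 to 1099 bases in the miR-EV libraries. Without the length offset the log2 fold change of Mrps10 was −0.13, and with protein-coding transcripts alone it was −0.11. The gene has 11 listed transcripts, and the one with the largest difference in TPM over all miR-EVs was the short retained-intron transcript Mrps10-207. In estimated counts the coding transcript Mrps10-204 differed more, by −14.0 against −10.3 for Mrps10-207. Mrps10-207 held 4.62, 6.73 and 5.02 TPM in ctrl-EVs and 1.42, 1.89 and 0.884 TPM in miR-142-5p-EVs. The values were 3.85, 2.73 and 2.96 TPM in miR-183-5p-EVs and 2.49, 5.46 and 3.72 TPM in miR-222-3p-EVs. These levels came from few reads, 18.5 to 24.8 estimated counts in ctrl-EVs and 3.30 to 20.5 in the miR-EV libraries. The other Mrps10 transcripts together held 12.7 ± 1.70 TPM in ctrl-EVs and 10.9 ± 1.24 TPM over all miR-EVs (SD). Of the miR-EV libraries 5 of 9 lay within the control range, and the others below it. The part of Mrps10-207 in the difference of the gene was not tested. The coding transcripts Mrps10-203 and Mrps10-204 together held 9.65, 6.02 and 8.79 TPM in ctrl-EVs and 4.78 to 9.30 TPM in the miR-EV libraries. The groups overlapped here, with 7 of the 9 miR-EV libraries within the range of the controls. Within the sum, the 2 transcripts went opposite ways in miR-183-5p-EVs. Mrps10-204 averaged 4.62 ± 0.92 TPM in ctrl-EVs (3.94 to 5.67) and 2.30 ± 0.85 TPM in miR-183-5p-EVs (1.34 to 2.95, SD, n = 3), without overlap. Mrps10-203, of nearly the same length, averaged 3.53 ± 1.70 TPM in ctrl-EVs and 4.70 ± 1.68 TPM in miR-183-5p-EVs, with overlap. How reads were divided between these transcripts was not tested. The share of all transcripts without overlap in this contrast was not counted, and Mrps10 was itself selected as lower against these controls. In miR-142-5p-EVs Mrps10-204 averaged 3.61 ± 0.60 TPM and in miR-222-3p-EVs 4.47 ± 0.78 TPM, and both overlapped the controls. The long retained-intron transcript Mrps10-206 held 0.837 to 1.33 TPM in ctrl-EVs and 0.812 to 1.62 TPM in the miR-EV libraries.

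Mrps10-207 keeps the 81-base intron between exons 2 and 3 of the coding transcript, and no other listed Mrps10 transcript contains it. Mrps10-207 is also shorter, at 469 bases against 1018 for the coding transcript Mrps10-203. The stretch is shown because its intron is present in the varying transcript and absent from the coding one. It runs 5′ to 3′ over chr17:47372467-47372597 (GRCm38, plus strand) in the GENCODE transcripts, within the coding part of the gene, and capitals mark the intron.
Mrps10-207: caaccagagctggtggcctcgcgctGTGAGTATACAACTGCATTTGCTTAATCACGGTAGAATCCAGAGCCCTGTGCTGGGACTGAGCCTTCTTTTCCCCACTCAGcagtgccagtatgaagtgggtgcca
Mrps10-203: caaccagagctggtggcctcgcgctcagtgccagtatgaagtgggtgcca

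**Figure D1:**
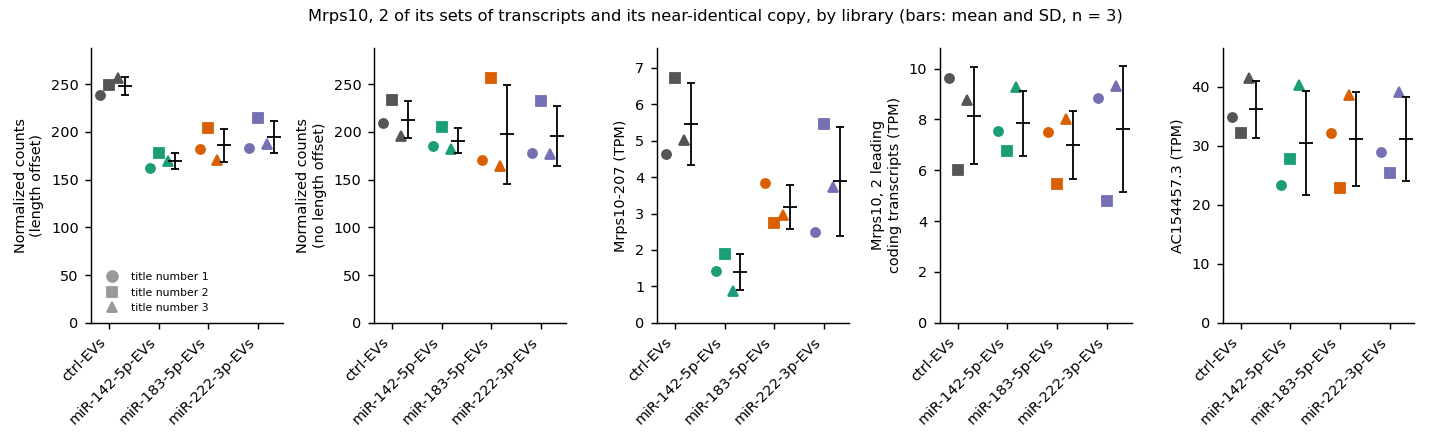
Mrps10 by library in 4 groups, with the symbol giving the title number and bars the mean and SD (n = 3). From left to right, the panels show normalized counts with and without the length offset, the TPM of Mrps10-207, the summed TPM of Mrps10-203 and Mrps10-204, and the TPM of the processed pseudogene AC154457.3. The miR-EV libraries lie below all controls in the first panel. For Mrps10-207 only 1 of the 9 miR-EV libraries, in miR-222-3p-EVs, lies in the control range, and in the remaining panels more of them do.

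Mrps10 has a near-identical copy, between which and the gene reads could be divided. The processed pseudogene AC154457.3 (chromosome 17, 65438128 to 65438697, minus strand) matches the leading Mrps10 transcript at 97.9% identity over 56.3% of its length. The pseudogene was assigned 178 estimated counts per library on average, against 198 for Mrps10. Its level was 34.9, 32.2 and 41.6 TPM in ctrl-EVs and 22.8 to 40.3 TPM in the miR-EV libraries, so the groups overlapped. Its log2 fold change over all miR-EVs was −0.28 (SE 0.19, adjusted p = 1.0), and −0.28 with the replicate block (SE 0.15, adjusted p = 0.41). The summed TPM of gene and pseudogene was 53.0, 49.7 and 60.6 in ctrl-EVs and 35.9 to 54.9 in the miR-EV libraries, with 3 of 9 inside the control range. The share of the copy in the difference of Mrps10 was not tested.

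In the 4-group fits with all libraries, the other 77 members did not pass the test in any comparison with ctrl-EVs. With all miR-EVs against ctrl-EVs, 0 members were called at an adjusted p under 0.05 (DESeq2), as were 0 of all tested genes (0%). With Mrps10 left out of the count, 1 member had an unadjusted p under 0.05, where 1.03% of all tested genes did. With the title number as a replicate block 0 members were called, where 87 of the 10670 genes with an adjusted p were (0.815%). In that fit 9 members, Mrps10 left out, had an unadjusted p under 0.05, where 10.6% of all tested genes did. The edgeR quasi-likelihood test called 0 members with and without the block.

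The same held for each miRNA. For miR-142-5p-EVs 0 members were called (all genes 0.0072%, with the block 0.0575%). With Mrps10 left out of the count, 1 member had an unadjusted p under 0.05 (5 with the block). Of all tested genes 0.525% did so, and 5.86% with the block. For miR-183-5p-EVs 0 were called (all genes 0%). With the block 0 were called, beside 0.548% of the 10401 genes with an adjusted p. At the unadjusted threshold there were 0 and 9, beside 0.992% and 10.1% of all tested genes. For miR-222-3p-EVs 0 were called (all genes 0%). With the block 0 were called, beside 0.142% of the 6357 genes with an adjusted p. At the unadjusted threshold there were 0 and 4, beside 0.726% and 6.53% of all tested genes.

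Although no single member passed, most lay slightly below 0. The median log2 fold change of the members was −0.09 over all miR-EVs, beside 0.01 for all tested genes. Of the members 67 of 78 were below 0 (85.9%), against 47.6% of all tested genes. Against the same control libraries, miR-222-3p-EVs gave a median of −0.08. The other medians were −0.12 (miR-183-5p-EVs) and −0.09 (miR-142-5p-EVs). Without ctrl-EVs replicate 3 the miR-222-3p-EVs median turned to 0.018 and that of miR-142-5p-EVs to 0.0061, and without miR-222-3p-EVs replicate 2 the former was 0.016. The members besides Mrps10 ranged from −0.35 for Mrpl52, a mitochondria-specific protein of the large subunit, to 0.16 for Mrps30. The middle part of the family, between the quartiles, spanned −0.17 to −0.04. By class, the medians with the replicate block were −0.12 for small-subunit proteins with bacterial homologues, −0.08 for the mitochondria-specific ones, −0.12 for large-subunit homologues and −0.08 for the mitochondria-specific ones.

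**Figure D2:**
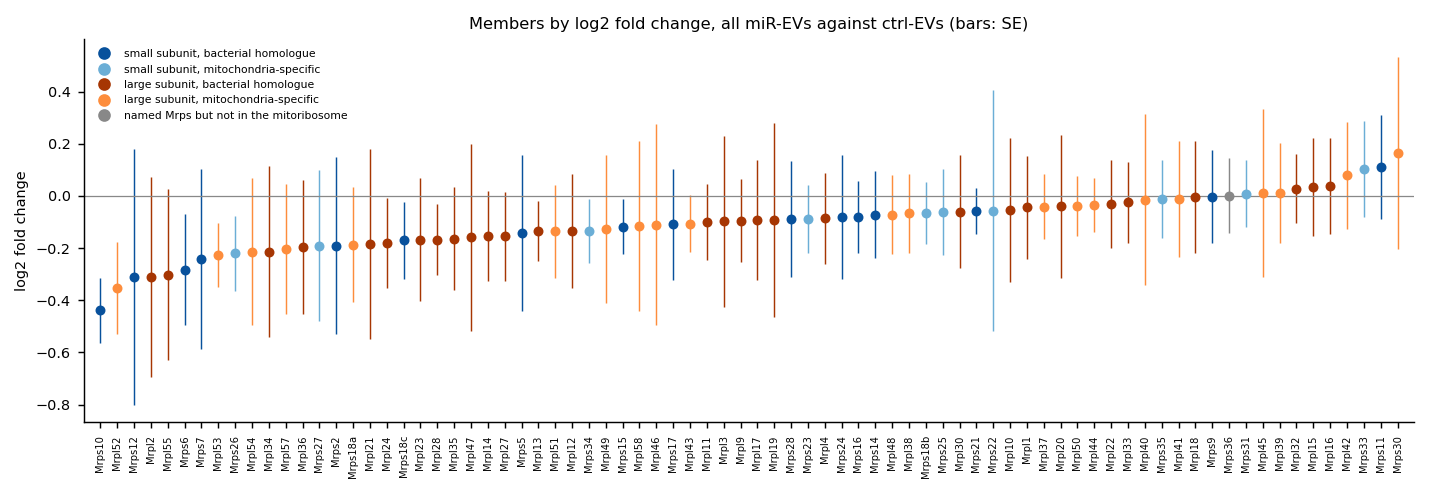
Log2 fold change of each of the 78 members, all miR-EVs against ctrl-EVs, in ascending order, with bars for the standard error and colours for the class of protein. Mrps10 is lowest at −0.44, Mrps30 is highest at 0.16, and 67 members (85.9%) lie below 0, against 47.6% of all tested genes.

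The shift of the family was unevenly spread over the title numbers. Each miR-EV library was set against the ctrl-EV library with the same number. At number 3 the median difference of the members was −0.23, −0.25 and −0.26 on the log2 scale, and 76, 74 and 76 of 78 members were lower. These 3 differences share 1 control library, ctrl-EVs replicate 3, in which the family was at its highest level of all libraries, with a median deviation of 0.29 from the members' means. At number 1 the median differences were −0.02, −0.09 and 0.06, with 43, 53 and 29 members lower. At number 2 they were 0.00, −0.05 and −0.06, with 38, 42 and 45 members lower. Over all tested genes the median differences in these pairs lay between −0.022 and 0.011. Without ctrl-EVs replicate 3 the median of the members over all miR-EVs was −0.001, and without ctrl-EVs replicate 2 it was −0.21. In the paired fit the median was −0.10 with all libraries and −0.02 without number 3.

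Mrps10 was furthest from its control at number 3 as well, and below it at each number, as its selection fixed. Its difference from the control of the same number was −0.56, −0.38 and −0.37 at number 1, −0.48, −0.29 and −0.22 at number 2, and −0.60, −0.59 and −0.45 at number 3. Without ctrl-EVs replicate 3 its log2 fold change was −0.41.

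**Figure D3:**
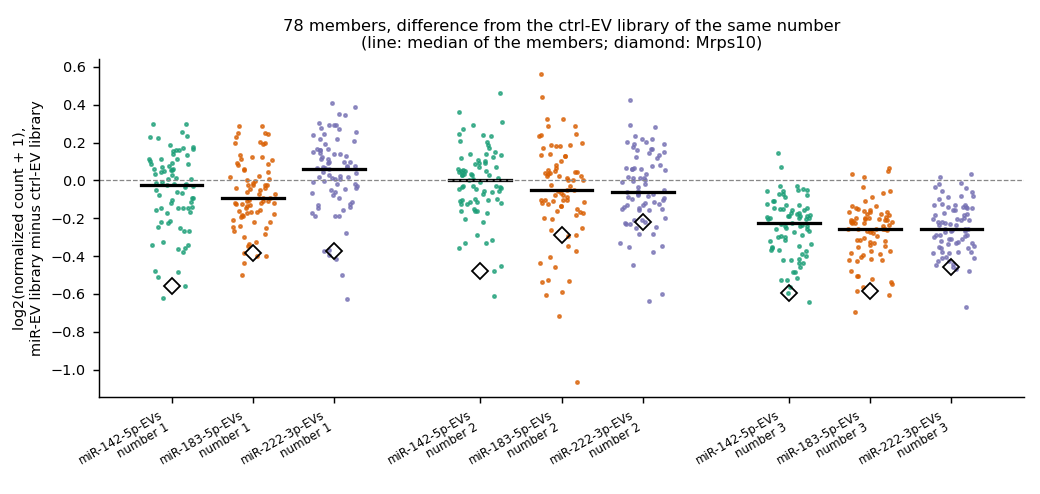
Differences of the 78 members between each miR-EV library and the ctrl-EV library with the same title number, in log2(normalized count + 1), where each point is a gene, the line is the median and the diamond is Mrps10. The medians lie between −0.09 and 0.06 at numbers 1 and 2 and between −0.26 and −0.23 at number 3, and Mrps10 lies below 0 in all 9 pairs, as its selection fixed.

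Outside the 4-group model a pair of further members passed. When all miR-EV libraries were treated as 1 group, with the replicate block, Mrpl2 and Mrps6 were called lower, besides Mrps10, which had been selected on this contrast. Of the 9861 genes with an adjusted p in that fit, 0.801% were called lower. Mrpl2, a large-subunit protein near the peptidyl transferase centre, had 853, 578 and 1263 normalized counts in ctrl-EVs. Its miR-EV libraries held 798, 378 and 934, then 801, 436 and 997, then 871, 371 and 925. Without ctrl-EVs replicate 3 the 4-group log2 fold change of Mrpl2 turned to 0.017. The values of Mrpl2 in number 2 were the lowest of each group, and the groups overlapped. Its log2 fold change was −0.33 (SE 0.09, adjusted p = 0.033), whereas the 4-group model gave −0.31 (SE 0.38, adjusted p = 1.0) and −0.34 with the block (SE 0.11, adjusted p = 0.098). Mrps6, a small-subunit protein, had 2358, 1400 and 2328 normalized counts in ctrl-EVs and 1326 to 1982 in the miR-EV libraries. Its log2 fold change was −0.26 (SE 0.08, adjusted p = 0.047), against −0.28 (SE 0.21, adjusted p = 1.0) and −0.26 (SE 0.09, adjusted p = 0.12) in the 4-group models. Among the fits run, these calls were made only in this one, apart from Mrps6 without ctrl-EVs replicate 2 in the 4-group fit with the block.

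The miR-EV groups were also compared with each other, contrasts on which Mrps10 had not been selected. For miR-142-5p-EVs against miR-183-5p-EVs 0 members were called (all genes 0.0144% with and without the block). The difference of Mrps10 was −0.13 (SE 0.15, adjusted p = 1.0). For miR-142-5p-EVs against miR-222-3p-EVs 0 were called (all genes 0.0072%, with the block 0.0216%), and Mrps10 differed by −0.20 (SE 0.15, adjusted p = 1.0). For miR-183-5p-EVs against miR-222-3p-EVs 0 were called (all genes 0% in both fits), and Mrps10 differed by −0.07 (SE 0.15, adjusted p = 1.0). No member had an unadjusted p under 0.05 in the fit without the block in any of these 3 comparisons.

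The members whose normalized counts followed those of Mrps10 most closely were Mrpl52 (Pearson r = 0.86), Mrps18c (0.79), Mrpl21 (0.79), Mrps6 (0.75) and Mrpl53 (0.73). These values describe 12 libraries after the mean of each title number was taken out, and the points share depth scaling and control libraries. They include the gap between ctrl-EVs and miR-EVs on which Mrps10 was selected. The lowest values were −0.46 for Mrps11 and −0.41 for Mrps33. Mrpl52 had 274, 206 and 335 normalized counts in ctrl-EVs and 178 to 242 in the miR-EV libraries, so its groups overlapped.

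More members were called between title numbers than between EV groups. The 4 libraries with number 2 stood apart from the other 8. They gave the 78 members a summed level of 3936 to 4277 TPM, against 5352 to 5822 TPM in numbers 1 and 3. Retained-intron transcripts took 10.4% to 11% of the members' counts in number 2 and 6.95% to 8.05% elsewhere. Over all genes the share was 5.76% to 6.63% in number 2 and 3.79% to 4.28% elsewhere. What a number stands for is not stated, and the part of these shares in the gene values below was not tested.

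**Figure D4:**
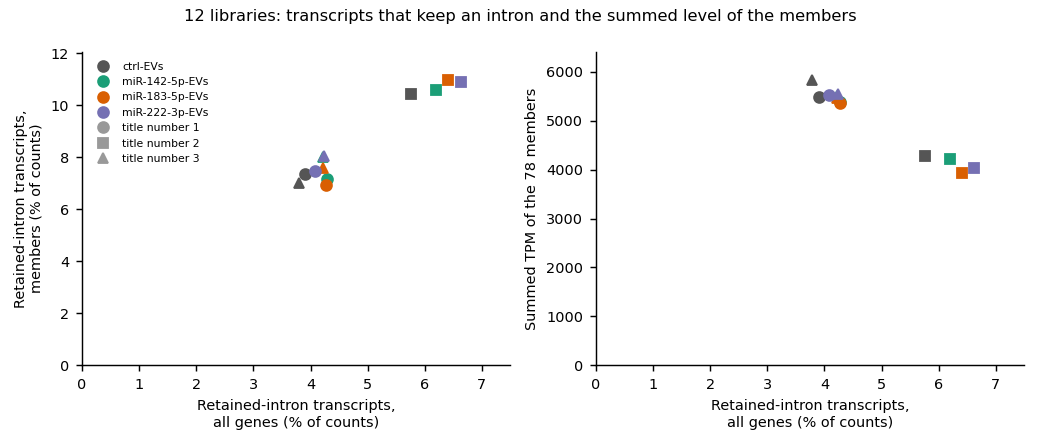
Share of counts in retained-intron transcripts over all genes in each of 12 libraries, against the same share over the members (left) and against the summed TPM of the 78 members (right), with colours for the group and symbols for the title number. The 4 libraries of number 2 lie apart, at 10.4% to 11% for the members and at 3936 to 4277 TPM.

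In number 2 against numbers 1 and 3, 53 of 78 members were called, where 64.1% of all tested genes were, so this share was near the background. Of the members 42 were lower (all genes 32.1%) and 11 were higher (all genes 32%). The median log2 fold change of the members was −0.25, beside 0.01 for all tested genes. The direction of the median was the same in all 4 protein classes, at −0.37 and −0.32 for small- and large-subunit homologues and −0.10 and −0.22 for the mitochondria-specific proteins.

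The largest falls were those of Mrps12, Mrps22 and Mrpl2. Mrps12, a homologue of S12 at the decoding centre, had 63.2, 54.1, 29.7 and 49.4 normalized counts in number 2. In numbers 1 and 3 it had 98.5 at the lowest, 131 at the median and 162 at the highest. Its log2 fold change was −1.42 (SE 0.21, adjusted p = 1.2e-10), with no overlap. Mrps22, a mitochondria-specific protein of the small subunit, had 277, 258, 204 and 217 normalized counts in number 2 and 550 to 779 in the others, with a median of 641. It fell by 1.42 on the log2 scale (SE 0.11, adjusted p = 1.1e-36). Mrpl2 fell by 1.08 (SE 0.10, adjusted p = 1.3e-25), from 798 to 1263 normalized counts in numbers 1 and 3 to 371 to 578 in number 2.

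The largest rises were those of Mrps30, Mrpl45 and Mrpl34. Mrps30, a large-subunit protein despite its symbol, had 1411, 1623, 2082 and 1894 normalized counts in number 2. In the others it ranged from 769 to 1008, with a median of 903. Its log2 fold change was 0.98 (SE 0.10, adjusted p = 7.1e-20), and 0.36 with protein-coding transcripts alone. Mrpl45, which helps to anchor the mitoribosome to the inner membrane, had 3527 to 3761 normalized counts in number 2 and 1672 to 2448 in the others, a rise of 0.81 (SE 0.09, adjusted p = 4.0e-20). Mrpl34 had 239 to 275 normalized counts in number 2 and 115 to 277 in the others, a rise of 0.53 (SE 0.14, adjusted p = 3.8e-04) in which the ranges overlapped. Mrps10 was not among the members called, with 249, 178, 204 and 214 normalized counts in number 2 and a log2 fold change of 0.13 (SE 0.12, adjusted p = 0.32). Mrps10 was called higher without the length offset, at 0.35 (SE 0.12, adjusted p = 0.0053), and with a length correction, at 0.27 (SE 0.11, adjusted p = 0.032). With protein-coding transcripts alone the sign reversed, at −0.19 (SE 0.18, adjusted p = 0.36), without a call.

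**Figure D5:**
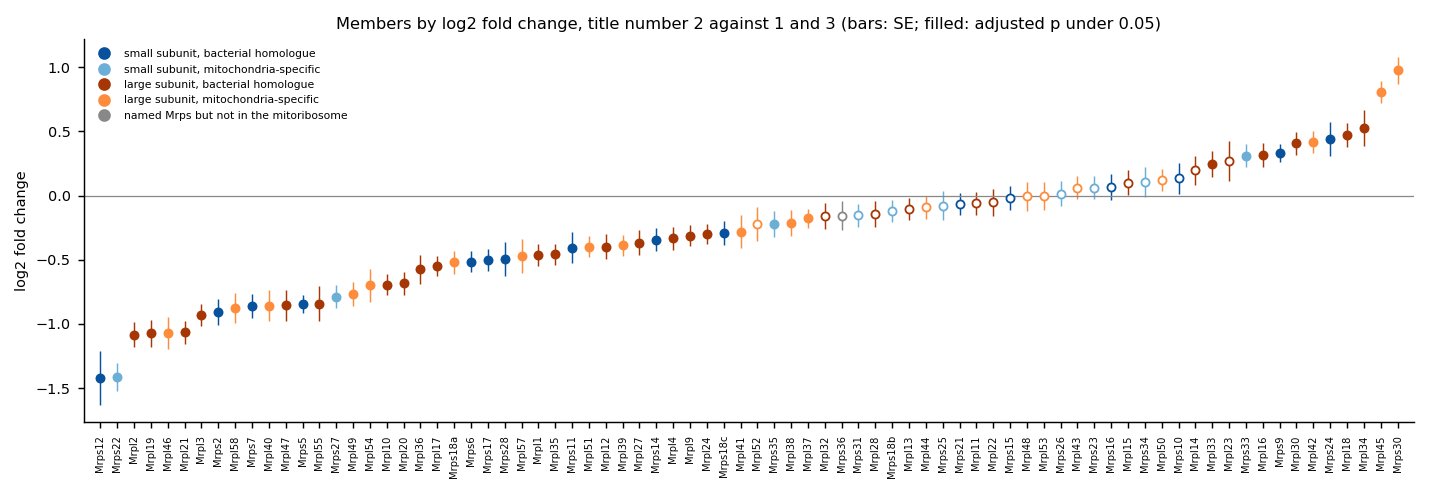
Log2 fold change of each of the 78 members in title number 2 against numbers 1 and 3, in ascending order, with bars for the standard error, filled points for an adjusted p under 0.05 and colours for the class of protein. The values run from −1.42 for Mrps12 to 0.98 for Mrps30, with 42 members called lower and 11 called higher.

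Number 1 against number 3 gave smaller differences. Of the members 13 were called higher in number 1 (all genes 12.9%) and 6 lower (all genes 10.5%), and the median of the members was 0.03. The largest rises were Mrpl47 at 0.54 (SE 0.13, adjusted p = 5.7e-04), Mrpl15 at 0.42 (SE 0.11, adjusted p = 0.0015) and Mrpl41 at 0.40 (SE 0.14, adjusted p = 0.025). Mrpl41 lost its call without number 1 or number 3 of any miR-EV group, Mrpl11 without miR-183-5p-EVs replicate 3 or miR-222-3p-EVs replicate 1, and Mrpl47 with protein-coding transcripts alone, at 0.27. Normalized counts of Mrpl47 were 675 to 773 in number 1 and 410 to 595 in number 3. The largest falls were Mrpl34 at −0.76 (SE 0.16, adjusted p = 4.7e-05), Mrps7 at −0.49 (SE 0.10, adjusted p = 3.6e-05) and Mrpl11 at −0.33 (SE 0.10, adjusted p = 0.0053). Mrpl34 had 115 to 177 normalized counts in number 1 and 188 to 277 in number 3. Leaving out 1 library moved the number of called members from 19 to between 5 and 27. Leaving out number 1 or number 3 of miR-222-3p-EVs gave 5 in either case. For miR-183-5p-EVs the counts were 11 and 5. Those for miR-142-5p-EVs were 7 and 6.

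The genes that work with the mitoribosome were examined in the same fits. Among 87 other tested genes of mitochondrial translation and biogenesis, 0 were called in all miR-EVs against ctrl-EVs, with and without the block. They include 5 mitoribosomal proteins with other names, Aurkaip1, Chchd1, Dap3, Gadd45gip1 and Ptcd3, whose median log2 fold change with the block was −0.02. Of 25 assembly factors, 20 had a log2 fold change below 0 with the block, with a median of −0.03. Of all tested genes 50.6% lay below 0 in that fit. The median was −0.05 for 15 translation factors, −0.02 for 17 mitochondrial aminoacyl-tRNA synthetases and 0.09 for 12 regulators of mitochondrial biogenesis. It was −0.12 for the 13 tested RNAs that mitochondria encode themselves, 12 of which lay below 0. In number 2 against numbers 1 and 3, 32.1% of all tested genes were called lower and 32% higher. Of the mitoribosomal proteins with other names 2 were called lower and 2 higher, with a median of 0.02. Of the assembly factors 15 were called lower and 3 higher. The counts were 9 and 3 for the translation factors and 10 and 3 for the synthetases, and 3 lower and 5 higher for the regulators. Of the mitochondrially encoded RNAs 6 were lower and 5 higher in number 2, and 9 were higher in number 1 than in number 3 (all genes 12.9%).

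Promoters of the members were searched for motifs of factors known to act on nuclear genes for mitochondrial proteins. RefSeq promoter sequences (GRCm38.p6, 250 bases before to 50 after the gene start) matched 69 of 78 members, and both strands were read. The ETS letters CCGGAAG stood in 26 of the 69 (37.7%), against 9.93% of all 27025 genes with a promoter and 19.4% of the tested ones. The NRF1 letters GCGCATGCG stood in 7 (10.1% against 1.95% and 4.04%). With the central base free, GCGCANGCG, a form that includes the former, there were 16 (23.2% against 7.03% and 14.5%). The YY1 letters AAGATGGCG stood in 8 (11.6% against 1.64% and 3.45%), and TATAAA in 5 (7.25% against 15.7% and 9.65%). Mrps10 held none of them. Short windows with the ETS letters in capitals are shown for Mrps12, Mrps22 and Mrpl3. These were picked from the members with the ETS letters that had the lowest log2 fold changes in number 2. The letters also stood in promoters of members called higher in number 2, namely Mrpl18, Mrpl33, Mrpl34 and Mrps33. A relation between the letters and the direction was not tested. The windows lie at chr7:28741804-28741830, chr9:98601674-98601700 and chr9:105053239-105053265, printed in the direction of the gene.
Mrps12: aggaggaaccCCGGAAGgggctggagg
Mrps22: acctctcgagCCGGAAGttgctctatc
Mrpl3: gagaaacggaCCGGAAGtggcccggct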

How the data were processed

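RNA-seq libraries (TruSeq Stranded mRNA) of 12 RAW264.7 samples in 4 groups of 3 were used as deposited. The authors quantified transcripts with Salmon, and the deposited tables hold estimated counts, TPM and effective lengths per transcript. The build named in the submitters' processing notes, GRCh38, is human, whereas the transcript identifiers are those of mouse. Of 118783 listed transcripts 116622 (98.2%) matched GENCODE vM21 (GRCm38), and the unmatched ones held 0.605% to 0.707% of counts.

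Estimated counts were summed to genes, rounded to whole numbers and fitted with DESeq2 1.42.0 (R 4.3.3; Wald test, 4 groups, offset for mean transcript length). The tested genes reached 10 counts in 3 or more libraries, and calls were made at an adjusted p under 0.05 (Benjamini-Hochberg). DESeq2 could set aside genes with low mean counts before this adjustment, and such genes could not be called. In the 4-group comparisons with ctrl-EVs, 6357 (miR-222-3p-EVs with the block) to 13906 genes had an adjusted p. Shares of called genes are of these genes. Title numbers were compared in a fit with number and group. Same-numbered libraries of different groups deviated together (18 pairs, r = 0.597 to 0.897 over 10857 genes, against −0.752 to 0.332 for 36 other pairs), so numbers were taken to pair the libraries, although the labels do not say what a number marks. A floor of 3 counts was 0.131 to 0.184 CPM.

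Alternatives were the replicate block, edgeR 4.0.16, TMM scaling, other filters, no length offset, GC and length corrections, and leaving out libraries. Fits with 2 groups or with protein-coding transcripts alone, and comparisons among miR-EVs, were chosen after seeing the data. The model code was run on simulated counts, with the same spread for all genes and few genes changed in number 2. That setting was simpler than these data, so it does not show how the fits perform here. Copies were searched with BLAST 2.17.0 (at least 95% identity over at least 50% of the transcript). Named genes were Mrps10, the 3 highest and 3 lowest by TPM, the 3 largest rises and falls among called members averaging 50 normalized counts or more, the 5 members most like Mrps10, and those with the most variable length or a copy. The members and lists were chosen with earlier results of these data known.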

Additional observations from a re-analysis of the deposited data

How the results depend on the processing

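The log2 fold change of Mrps10 over all miR-EVs depended on the length offset. It was −0.13 without the offset, −0.14 without it in the fit with the replicate block and −0.11 with protein-coding transcripts alone, against −0.44, and it stayed between −0.49 and −0.39 when 1 library was left out. Mrps10-207 took 30.2% of the gene's TPM in ctrl-EVs but 10.6% of its estimated counts. The count of members called over all miR-EVs was 3 with 2 groups and the replicate block, which includes Mrps10, selected on this contrast, and 0 to 1 when 1 library was left out. It was also 0 to 1 for miR-222-3p-EVs, where Mrps6 was called without ctrl-EVs replicate 2. The replicate block changed no other call of a member against ctrl-EVs. The log2 fold change of Mrpl2 ranged from −0.55 to 0.017, reversing without ctrl-EVs replicate 3, and the median of the members in miR-183-5p-EVs ranged from −0.26 to −0.023. That of miR-222-3p-EVs reversed to 0.021 with the block and without number 3, besides the reversals given above for left-out libraries. Of the 87 other genes of mitochondrial translation, 2 were called with 2 groups and the block, 1 with the block and a GC correction, 1 with the block and without number 3, and 0 to 2 when 1 library was left out. In number 1 against number 3, leaving out 1 library gave 5 to 27 called members, 3 to 7 of them lower, and 10 to 24 other genes. In number 2 against numbers 1 and 3 the called members ranged from 48 to 56 over all alternatives. The cause of these changes was not tested. Depth limited Mrps10-207, which held 3.30 to 24.8 estimated counts per library.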

Other observations

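Of the 78 members, 11 had a near-identical match among the transcripts of another listed gene. For Mrpl53 and Mrps34 that gene overlaps the member at the same place, and the remaining matches were processed pseudogenes, so that reads could be divided between gene and copy. Mrpl23, a large-subunit protein near the exit tunnel, was assigned 199 estimated counts per library on average, whereas its pseudogene Mrpl23-ps1, with 100% identity over 78% of the transcript, was assigned 733. Mrpl53 held 329 counts beside 205 for Gm42688, which overlaps it on the same strand and contains its whole sequence. Mrpl48 held 406 beside 97.6 for Mrpl48-ps. Mrps34, with 258 counts, overlaps Mapk8ip3 on the opposite strand, which held 2307. The copies of Mrpl21, Mrpl22, Mrpl27, Mrpl42, Mrps21 and Mrps5 held at most 0.318 counts on average.

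The mean transcript length varied between libraries most for Mrps17, from 840 to 1817 bases (coefficient of variation 30.9%), followed by Mrpl47, from 1114 to 1715 bases (14.2%), and Mrpl17, from 561 to 813 bases (14.0%). In all, 25 members overlapped another tested gene.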
